A study of Mus musculus with 7 samples.

Results

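The genes described here were listed for the import of cholesterol into mitochondria and for the making and conversion of steroid hormones. The rule named 10 genes by symbol, and 9 of them matched a row among the 55384 genes of the deposited table: Star, Tspo, Cyp11a1, Cyp19a1, Hsd17b4, Hsd17b10, Srd5a1, Akr1c14 and Hsd11b1. Sts, the steroid sulfatase gene, was not analysed here. Their RNA was measured on HA-tagged ribosomes that had been pulled down from Kiss1 cells of the anteroventral periventricular nucleus (AVPV) of the hypothalamus, in female Kiss1Cre+/Rpl22HA+/+ mice on the C57BL/6 background. In such RiboTag mice the tag is switched on only in cells in which the Kiss1 gene drives, or once drove, Cre recombinase. The 3 E2 libraries came from estradiol-treated females and the 4 GDX libraries from ovariectomized females without estradiol, and all 7 libraries carry the same Cre and tag genotype. Each library was a pool of 4 brains. The dose and route of estradiol, the age of the mice and whether the E2 mice were also ovariectomized are not given in the labels.

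Neurons and glia can take up cholesterol and turn it into steroids on site. Cholesterol is carried to the inner mitochondrial membrane, cut to pregnenolone, and then oxidised, reduced or aromatised by enzymes that differ between cell types. In the preoptic area and hypothalamus, local aromatase is known for making estradiol from testosterone, and 5-alpha reductase with 3-alpha dehydrogenase for making neurosteroids that act on GABA receptors.

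The promoter windows below show transcript starts of the enzymes named for local estrogen and pregnenolone synthesis. They also show those of Por and Hsd17b12, the only genes of the pathway lists that passed the test for a change with estradiol. They are taken from RefSeq on GRCm38.p6, run from 250 bases before to 50 bases after a start, and are written 5′ to 3′ on the gene's strand. Cyp19a1 has 3 starts in this table and Cyp11a1 has 2, and the counts per gene do not tell them apart. The window of start 1 of Cyp11a1 lies outside the gene as annotated for the counts (58006411 to 58027023). That of start 1 of Cyp19a1 lies just beyond its annotated gene (54165937 to 54268110). The windows of start 2 of Cyp11a1, of starts 2 and 3 of Cyp19a1 and of Por lie inside their annotated genes. None of these covers the annotated gene start (Por is annotated from 135670033 to 135735326). Capitals mark the letters AGGTCA or their reverse complement TGACCT, the half-site that estrogen receptors share with other nuclear receptors.
Cyp19a1, start 1 (chr9:54268115-54268414, minus strand): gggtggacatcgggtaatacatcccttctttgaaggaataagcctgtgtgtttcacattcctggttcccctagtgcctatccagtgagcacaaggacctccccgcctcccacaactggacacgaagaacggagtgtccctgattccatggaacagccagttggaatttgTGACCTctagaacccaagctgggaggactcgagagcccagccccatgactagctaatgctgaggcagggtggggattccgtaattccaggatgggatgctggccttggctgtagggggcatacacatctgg
Cyp19a1, start 2 (chr9:54228865-54229164, minus strand): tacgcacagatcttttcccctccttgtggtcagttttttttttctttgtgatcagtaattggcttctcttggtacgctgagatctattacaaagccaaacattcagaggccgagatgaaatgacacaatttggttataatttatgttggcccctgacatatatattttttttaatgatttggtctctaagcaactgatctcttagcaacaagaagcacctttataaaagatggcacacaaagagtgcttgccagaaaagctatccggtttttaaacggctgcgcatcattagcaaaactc
Cyp19a1, start 3 (chr9:54193694-54193993, minus strand): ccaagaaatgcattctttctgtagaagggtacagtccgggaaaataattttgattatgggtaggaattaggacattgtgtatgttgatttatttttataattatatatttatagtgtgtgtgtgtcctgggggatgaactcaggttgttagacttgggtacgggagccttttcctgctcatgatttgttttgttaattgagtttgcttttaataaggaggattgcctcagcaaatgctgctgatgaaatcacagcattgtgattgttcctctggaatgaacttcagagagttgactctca
Cyp11a1, start 1 (chr9:57997774-57998073, plus strand): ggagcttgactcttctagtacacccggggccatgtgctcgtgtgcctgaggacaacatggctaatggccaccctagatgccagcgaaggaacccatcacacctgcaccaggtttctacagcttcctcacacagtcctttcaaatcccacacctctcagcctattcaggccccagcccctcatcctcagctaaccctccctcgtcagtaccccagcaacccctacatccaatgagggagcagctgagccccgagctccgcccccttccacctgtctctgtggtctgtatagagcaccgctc
Cyp11a1, start 2 (chr9:58014702-58015001, plus strand): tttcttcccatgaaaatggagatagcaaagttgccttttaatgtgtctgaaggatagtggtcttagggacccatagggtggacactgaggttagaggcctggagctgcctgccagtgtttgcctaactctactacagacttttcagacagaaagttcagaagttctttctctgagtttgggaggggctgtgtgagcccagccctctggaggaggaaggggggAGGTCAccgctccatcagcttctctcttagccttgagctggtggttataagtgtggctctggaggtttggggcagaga
Por (chr5:135688895-135689194, plus strand): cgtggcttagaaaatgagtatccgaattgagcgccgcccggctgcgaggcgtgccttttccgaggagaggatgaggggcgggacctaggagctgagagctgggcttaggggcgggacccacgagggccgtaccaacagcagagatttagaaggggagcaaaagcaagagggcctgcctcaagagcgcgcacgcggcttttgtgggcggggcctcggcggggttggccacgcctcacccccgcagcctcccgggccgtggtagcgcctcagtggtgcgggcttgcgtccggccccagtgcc
Hsd17b12 (chr2:94157860-94158159, minus strand): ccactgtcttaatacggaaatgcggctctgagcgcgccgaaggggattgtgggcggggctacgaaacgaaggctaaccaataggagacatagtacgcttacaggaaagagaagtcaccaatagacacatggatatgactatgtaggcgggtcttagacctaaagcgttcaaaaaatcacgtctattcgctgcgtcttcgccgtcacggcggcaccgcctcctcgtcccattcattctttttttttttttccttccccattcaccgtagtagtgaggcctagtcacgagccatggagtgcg

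Of the members, 6 had windows in the RefSeq table, 9 windows in all. The half-site was present in 2 of these 9, start 1 of Cyp19a1 and start 2 of Cyp11a1, beside 16.3% of all 32851 windows of this length. The full estrogen response element, GGTCA and TGACC with 3 bases of any kind between them, was in none of the 9 and in 0.07% of all windows. The site of the steroidogenic factor SF-1, CAAGGTCA, which contains the half-site, was also in none, against 1.56% of all windows. Both strands were searched, and neither the element nor the half-site was found in the windows of Por and Hsd17b12.

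The libraries held 29207544 to 36213127 counts. Kiss1 was at 380.8, 485.3 and 379.2 CPM in E2 and at 52.1, 44.5, 56.0 and 113.5 CPM in GDX, where CPM is a gene's share of a library's counts on a fixed total, with the library total adjusted by edgeR's TMM factors, and the estrogen target gene Pgr was at 117 ± 12.9 CPM in E2 and 28.3 ± 3.95 CPM in GDX (SD, n = 3 and 4). Kiss1 and Pgr belong to a list of 6 AVPV kisspeptin cell markers, which summed to 2624 to 2727 CPM in E2 and 1597 to 1905 CPM in GDX. Of the 6, edgeR called 4 higher in E2, beside 2.55% of all genes tested. Esr1 of this list was lower in E2 without a call (log2 fold change −0.39, adjusted p = 0.09, edgeR), and Slc32a1 was at 0.07. Markers of other cells were present in every library. The summed level of 6 astrocyte markers was 828.5, 897 and 981 CPM in E2 and 2391, 1080, 1133 and 2965 CPM in GDX. The sum of 6 endothelial markers was 89.7, 148.6 and 140.1 CPM in E2 and 283.6, 182.7, 158.7 and 403.8 CPM in GDX. Neither sum overlapped between the groups, and GDX replicates 1 and 4 were the highest in both. Not every marker followed its sum. Gfap (162.8 to 203.2 CPM in E2, 313.3 to 1765 CPM in GDX), Aqp4 and Gja1 did not overlap, while Aldh1l1, Slc1a3 and Aldoc did. Cldn5 and Flt1 did not overlap, while Pecam1, Cdh5, Slco1a4 and Emcn did, where 16.5% of all tested genes did not overlap. The sum of 6 oligodendrocyte markers was 3074, 2718 and 2557 CPM in E2 and 5728, 2991, 2758 and 3046 CPM in GDX, and these overlapped. All 6 markers in each of the astrocyte, endothelial and oligodendrocyte lists had a lower mean in E2, and 0 of them were called by edgeR. The sum of 6 microglial markers overlapped, at 72.1 to 96.2 CPM in E2 and 69.6 to 91.5 CPM in GDX, and 6 neuronal markers summed to 2698 to 2892 CPM in E2 and 2538 to 2954 CPM in GDX. A score over all non-neuronal markers, their mean log2 CPM, was 4.66 to 4.96 in E2 and 5.06 to 5.97 in GDX (difference −0.64, two-sided exact permutation p = 0.0857, smallest possible 0.0286).

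None of the 9 steroid synthesis and conversion genes passed the test for a change with estradiol. All 9 passed the low-count filter and were tested by edgeR's quasi-likelihood test, where a gene was called changed at a Benjamini-Hochberg adjusted p under 0.05, and 0 of 9 were called, beside 3.88% of all 18282 genes tested (2.55% rose and 1.33% fell). Of the 710 genes called in all, 65.8% were higher in E2, and with library sizes alone as scaling 52.2% of 737 were. The CPM of the groups overlapped for all 9, where 16.5% of all tested genes had groups that did not overlap (8.06% with E2 lower). At an unadjusted p under 0.05 there were 2, Tspo and Hsd17b10, against 16.8% of all genes tested. DESeq2 also called 0 of 9, beside 1358 of all 17886 genes it tested, and limma-voom 0 of 9, beside 1109 of 18282. In 8 of 9 the log2 fold change was below 0, with a median of −0.28, where 49.2% of all tested genes were below 0 and the median was 0.00. Without GDX replicates 1 and 4, a setting chosen after the data were seen, 5 of 9 were below 0, with a median of −0.22. With a replicate block, fitted on replicates 1 to 3 of each group, 5 of 9 were below 0 (median −0.32). The count was also 5 of 9 with the non-neuronal score as a covariate (median −0.22). That score did not overlap between the groups, so the fit with this covariate can hardly separate group from score, here and below. In a pulled-down tissue sample, fewer cells of a type and less RNA per cell cannot be told apart.

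**Figure D1:**
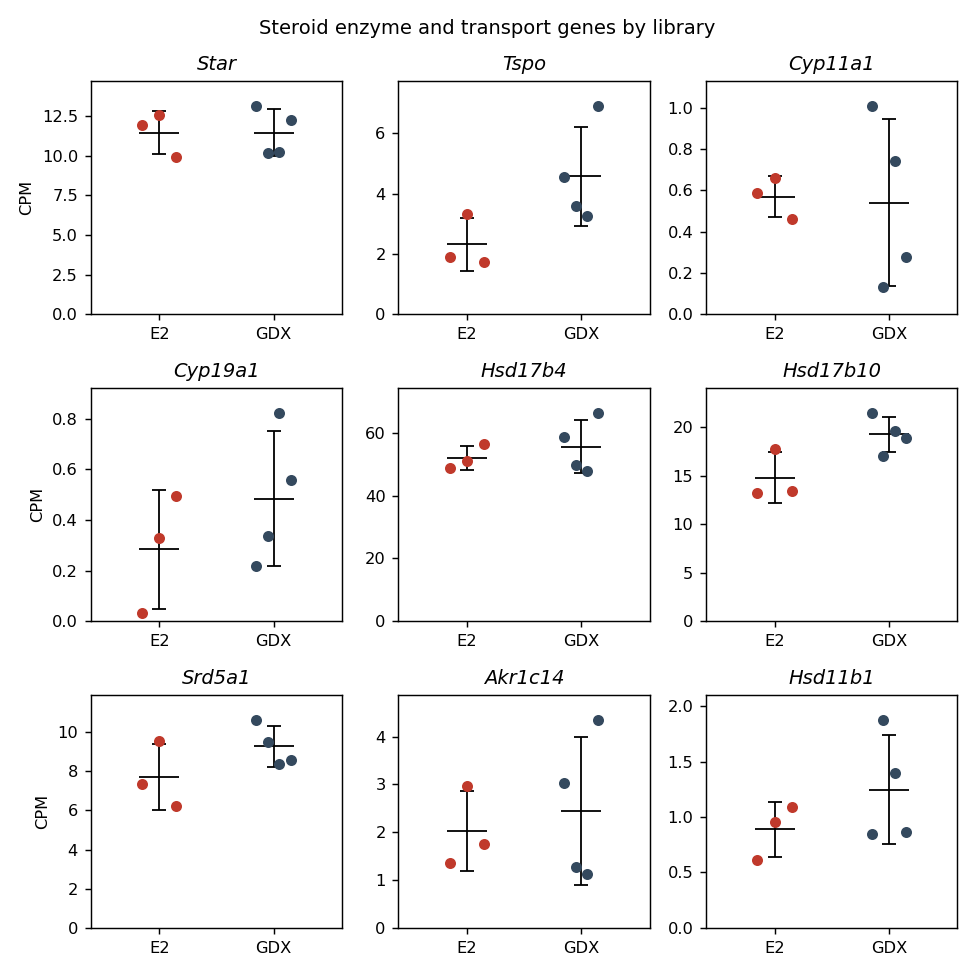
CPM of the 9 genes in each library, with E2 in red on the left and GDX in dark blue on the right of each panel. Lines show the mean and SD over 3 E2 and 4 GDX libraries, and the groups overlap in all 9 panels.

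Levels differed between the genes far more than between the groups. Per kilobase of annotated exon, Hsd17b4 averaged 15.9 and Hsd17b10 13.4 CPM per kb over the 7 libraries. Tspo, Srd5a1 and Star followed at 3.43, 2.95 and 2.78 CPM per kb. Akr1c14 was at 0.699, Hsd11b1 at 0.257, Cyp11a1 at 0.115 and Cyp19a1 at 0.0882 CPM per kb. By this measure Hsd17b4 stood at the 81.5th percentile of all tested genes, Star at the 44.4th and Cyp19a1 at the 1.6th. At 2 places in this order the ranges of the libraries did not overlap. The lowest Hsd17b10 library (10.2 CPM per kb) lay above the highest Tspo library (6.56), and the lowest Star library (2.41) lay above the highest Akr1c14 library (1.345). All other neighbours in this order overlapped in their ranges.

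**Figure D2:**
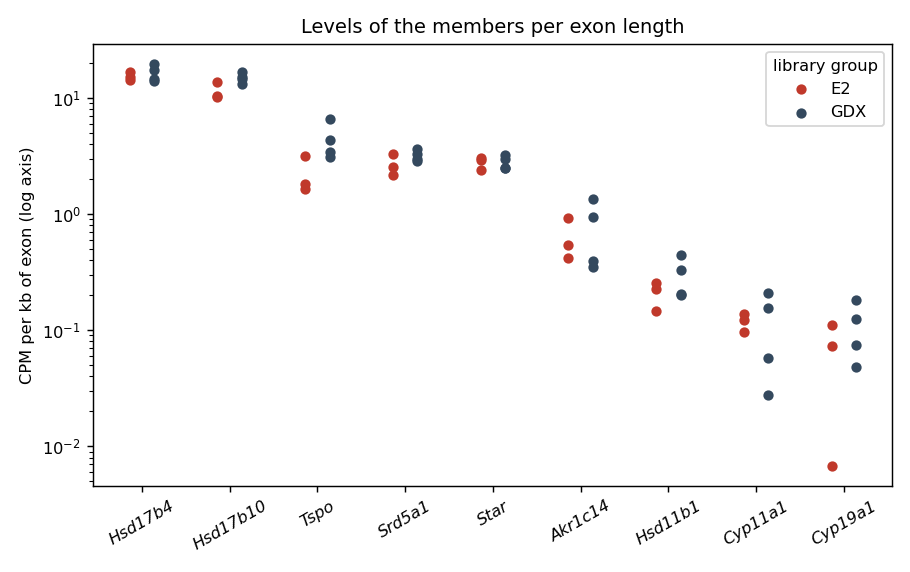
Level of each gene in CPM per kilobase of exon on a log axis, 1 point per library, E2 in red to the left of GDX in dark blue, genes ordered by their mean. The dehydrogenase genes Hsd17b4 and Hsd17b10 lie above 10 CPM per kb in every library, and Cyp11a1 and Cyp19a1 lie at or below 0.21 CPM per kb.

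Star and Tspo were the members listed for import of cholesterol into mitochondria. Star (ENSMUSG00000031574, chromosome 8, 25806555 to 25815982, GRCm38), whose product delivers cholesterol to the inner mitochondrial membrane and sets the rate of steroid synthesis in gonads and adrenals, was at 11.9, 12.5 and 9.91 CPM in E2 and at 13.1, 10.2, 10.25 and 12.3 CPM in GDX. The groups overlapped, with means of 11.4 ± 1.37 CPM in E2 and 11.45 ± 1.48 CPM in GDX (SD, n = 3 and 4). The fold change was 0.999, and its 95% interval reached from 0.785 to 1.27.

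Tspo (ENSMUSG00000041736, chromosome 15, 83563592 to 83574203), which encodes a cholesterol-binding protein of the outer mitochondrial membrane known in brain mainly from microglia, astrocytes and vessels, was at 1.91, 3.33 and 1.72 CPM in E2 and at 4.55, 3.59, 3.24 and 6.90 CPM in GDX. The highest E2 library lay just above the lowest GDX library, and GDX replicate 4 was the highest of all. The mean was 2.32 ± 0.88 CPM in E2 and 4.57 ± 1.65 CPM in GDX (SD, n = 3 and 4), 1.97 times lower in E2, with a log2 fold change of −0.98 ± 0.35 (SE). Its unadjusted p was 0.0161 and its adjusted p 0.1705 in edgeR, so it was not called. With no low-count filter its adjusted p was 0.0434, and over all other settings it ranged from 0.057 to 0.892. The log2 fold change was −0.56 without GDX replicates 1 and 4 and −0.22 with the non-neuronal score as a covariate, and the part of non-neuronal RNA in the difference was not tested. Tspo shares 53 bp of exon with Mcat on the opposite strand, so its level is uncertain in libraries without strand information.

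**Figure D3:**
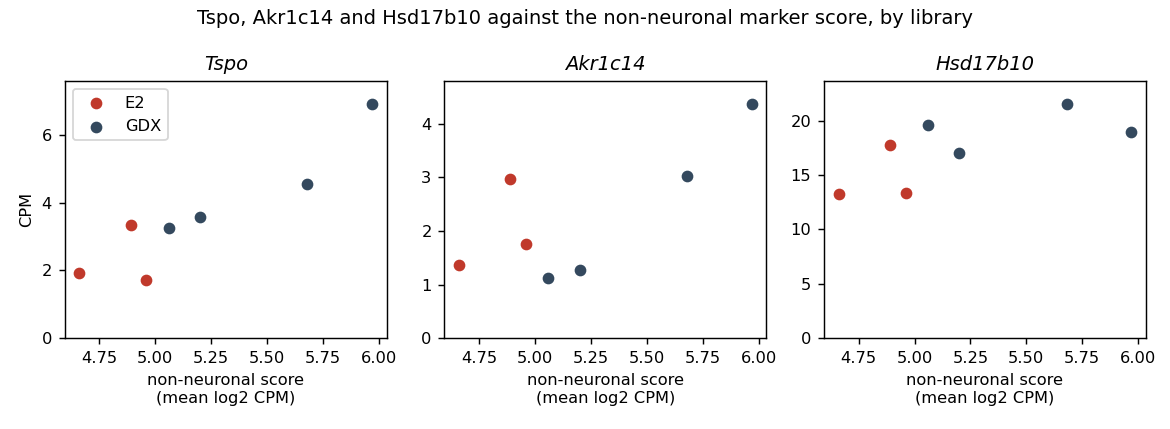
CPM of Tspo, Akr1c14 and Hsd17b10 (y axis) against the mean log2 CPM of the non-neuronal markers (x axis), 1 point per library, E2 in red and GDX in dark blue. GDX replicates 1 and 4 have the highest scores (5.68 and 5.97), and they also have the highest Tspo (4.55 and 6.90 CPM) and Akr1c14 (3.03 and 4.36 CPM). The same holds for Hsd17b4 (58.7 and 66.4 CPM, not plotted). It does not hold for Hsd17b10, where GDX replicate 3 (19.6 CPM) lies above replicate 4 (18.9 CPM), or for the remaining members. For Hsd11b1 (not plotted), GDX replicates 1 and 4 are the lowest GDX libraries (0.845 and 0.866 CPM).

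The enzymes that open and close the pathway to estradiol held few counts. Cyp11a1 (ENSMUSG00000032323, chromosome 9, 58006411 to 58027023) encodes the mitochondrial P450 that cuts the cholesterol side chain to give pregnenolone. It held 18.8, 20.1 and 13.8 counts in E2 and 37.1, 4, 27 and 10 counts in GDX, or 0.569 ± 0.0995 CPM in E2 and 0.541 ± 0.406 CPM in GDX (SD, n = 3 and 4). The GDX libraries spread 7.52-fold and enclosed all E2 libraries. Its log2 fold change of 0.06 had a 95% interval of −1.43 to 1.55 and an adjusted p of 0.979 (edgeR). Cyp11a1 shares 145 bp with Gm17322, a long non-coding RNA gene on the same strand with a mean of 61.7 counts, which leaves the division of these few counts uncertain.

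Cyp19a1 (ENSMUSG00000032274, chromosome 9, 54165937 to 54268110), the aromatase gene, held 1, 10 and 15 counts in E2 and 8, 10, 30 and 20 counts in GDX. These counts correspond to 0.0308, 0.33 and 0.4955 CPM in E2 and 0.218, 0.335, 0.824 and 0.5585 CPM in GDX, where 3 counts correspond to 0.0818 to 0.101 CPM. E2 replicate 1 was below that floor, and the other libraries of both groups overlapped. The log2 fold change was −0.77 ± 0.82 (SE) with a 95% interval from −2.55 to 1.02 (adjusted p = 0.725, edgeR). Without E2 replicate 1 the log2 fold change was −0.23. Among genes of at least 1 CPM, the centred log2 profile most like that of Cyp19a1 over the 7 libraries was that of the predicted gene Gm49342, followed by Gm11966 and by Sntn, a gene of cilia, with root mean square differences of 0.293, 0.394 and 0.441 beside a profile SD of 0.98 for Cyp19a1 itself. This ranking is a description only, since the Cyp19a1 profile rests on 1 to 30 counts per library, with 1 count in E2 replicate 1.

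Both 17-beta dehydrogenases were the most abundant of these genes. Hsd17b4 (ENSMUSG00000024507, chromosome 18, 50128201 to 50196269) encodes a peroxisomal enzyme that oxidises estradiol to estrone and also takes part in fatty acid beta-oxidation. It was at 48.7, 50.9 and 56.4 CPM in E2 and at 58.7, 49.7, 47.9 and 66.4 CPM in GDX, with GDX replicate 4 the highest and all E2 libraries within the GDX range. Between the groups the log2 fold change was −0.10 with a 95% interval from −0.36 to 0.16 (adjusted p = 0.76, edgeR). It was 0.09 without GDX replicates 1 and 4.

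Hsd17b10 (ENSMUSG00000025260, chromosome X, 152001845 to 152004442) encodes a mitochondrial dehydrogenase that acts on steroids and on isoleucine breakdown products and is a subunit of mitochondrial RNase P. It was at 13.2, 17.8 and 13.4 CPM in E2 and at 21.5, 17.1, 19.6 and 18.9 CPM in GDX. Only E2 replicate 2 reached into the GDX range, above GDX replicate 2. The means were 14.8 ± 2.6 CPM in E2 and 19.3 ± 1.82 CPM in GDX (SD, n = 3 and 4), with a log2 fold change of −0.38 ± 0.14 (SE), an unadjusted p of 0.0221 and an adjusted p of 0.199 (edgeR). Its log2 fold change was −0.31 without GDX replicates 1 and 4 and −0.29 with the covariate, and no setting gave an adjusted p under 0.0987.

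The enzymes that reduce progesterone and androgens lay lower. Srd5a1 (ENSMUSG00000021594, chromosome 13, 69573449 to 69611442), the type 1 5-alpha reductase gene, was at 7.34, 9.53 and 6.24 CPM in E2 and at 10.6, 9.49, 8.35 and 8.57 CPM in GDX. E2 replicate 2 lay among the GDX libraries and the other E2 libraries below them. The log2 fold change was −0.27 ± 0.19 (SE, adjusted p = 0.551, edgeR), and the 95% interval in fold was 0.622 to 1.11. Srd5a1 shares 476 bp with Gm17108 on the same strand, which had a mean of 9.26 counts.

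Akr1c14 (ENSMUSG00000033715, chromosome 13, 4049011 to 4090688), the mouse 3-alpha dehydrogenase gene that follows 5-alpha reductase in the making of allopregnanolone, was at 1.36, 2.97 and 1.75 CPM in E2 and at 3.03, 1.275, 1.13 and 4.36 CPM in GDX. The GDX libraries split, with replicates 1 and 4 above all E2 libraries and replicates 2 and 3 below all of them. Replicates 1 and 4 were also the highest in the summed astrocyte and endothelial markers. The log2 fold change was −0.28 ± 0.50 (SE, adjusted p = 0.853, edgeR). Its sign turned without GDX replicate 4 (0.16), without GDX replicates 1 and 4 (0.75) and with the covariate (1.35, adjusted p = 0.243). The other Akr1c genes listed stayed at or below 0.738 CPM, and the division of reads among such near copies is uncertain.

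Hsd11b1 (ENSMUSG00000016194, chromosome 1, 193221634 to 193264075) encodes the enzyme that regenerates active corticosterone inside cells. It was at 0.6165, 0.956 and 1.09 CPM in E2 and at 0.845, 1.88, 1.40 and 0.866 CPM in GDX. The highest values were those of GDX replicates 2 and 3, while replicates 1 and 4 lay within the E2 range. For Hsd11b1 the log2 fold change was −0.49 ± 0.46 (SE) with a 95% interval from −1.49 to 0.51 (adjusted p = 0.672, edgeR).

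**Figure D4:**
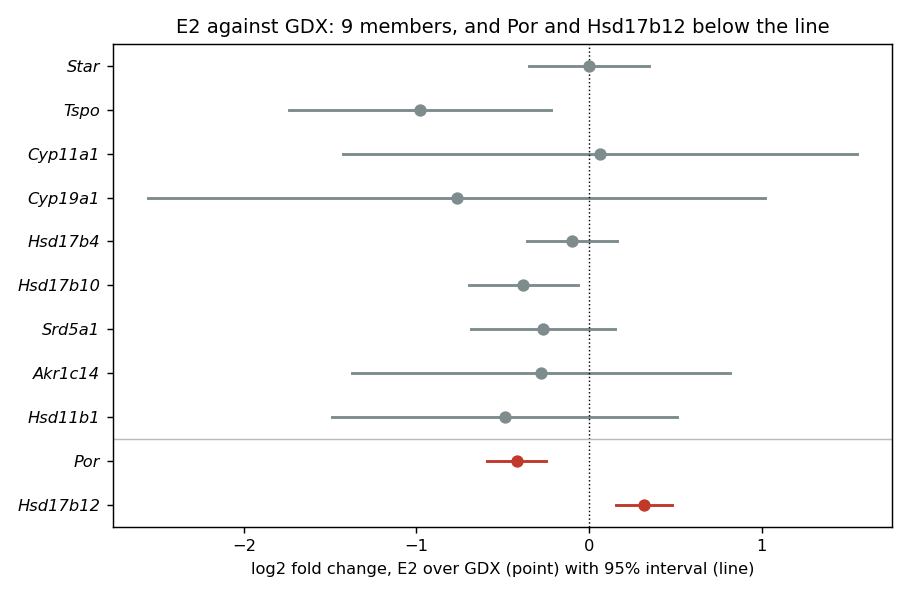
Log2 fold change, E2 over GDX, as points with 95% intervals as lines, for the 9 genes (grey) and, below the thin line, for Por and Hsd17b12 (red, called). Intervals are narrow for Star (−0.35 to 0.35) and Hsd17b4 (−0.36 to 0.16) and wide for Cyp19a1 (−2.55 to 1.02).

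The rest of the pathway was described by 9 lists with 76 genes found in the table, of which 43 passed the filter. Of these 43, 1 rose and 1 fell in E2 (4.65%, beside 3.88% of all genes tested), 41 were not called, and the median log2 fold change was −0.02. Of the 33 genes not tested, 10 were listed at 0 in all 7 libraries, 17 (among them these 10) held at most 3 counts in every library, and none reached more than 0.738 CPM in any. Among those not tested were all 4 other steroidogenic P450 genes (Cyp17a1, Cyp11b1, Cyp11b2 and Cyp21a1), 6 of 7 3-beta dehydrogenase genes and Srd5a2, the type 2 5-alpha reductase gene.

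Por, which encodes the reductase that passes electrons to microsomal P450 enzymes, aromatase included, fell to 155.4, 152.2 and 153.6 CPM in E2, against 182.9, 203.2, 215.8 and 220.5 CPM in GDX. The groups did not overlap (as for 16.5% of all tested genes), and the lowest GDX library was replicate 1. The means were 154 ± 1.62 CPM in E2 and 206 ± 16.8 CPM in GDX (SD, n = 3 and 4), a log2 fold change of −0.42 ± 0.08 (SE) with an adjusted p of 0.00957 (edgeR). It was −0.45 without GDX replicates 1 and 4. The call was lost without E2 replicate 1 (adjusted p = 0.053), 2 (0.0538) or 3 (0.0531) and with the covariate (0.0581). In these 4 fits the log2 fold change was −0.43, −0.41, −0.42 and −0.43, beside −0.42 over all libraries without the covariate.

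Hsd17b12, which encodes an enzyme of fatty acid elongation that also converts estrone to estradiol, rose to 91.45, 94.1 and 89.1 CPM in E2, against 75.5, 69.4, 75.9 and 72.9 CPM in GDX. These groups did not overlap either. The means were 91.6 ± 2.53 CPM in E2 and 73.4 ± 2.997 CPM in GDX (SD, n = 3 and 4), a log2 fold change of 0.32 ± 0.07 (SE) with an adjusted p of 0.0318 (edgeR). The direction was the same in all 16 other settings run, with log2 fold changes of 0.26 to 0.34, but the gene was called in 7 of them. Those without a call included the fits without E2 replicates 1, 2 or 3 or GDX replicates 1 or 2, with adjusted p from 0.0751 to 0.148, without GDX replicates 1 and 4 (0.0555), with library sizes alone (0.0746) and with the covariate (0.202, at a log2 fold change of 0.32).

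**Figure D5:**
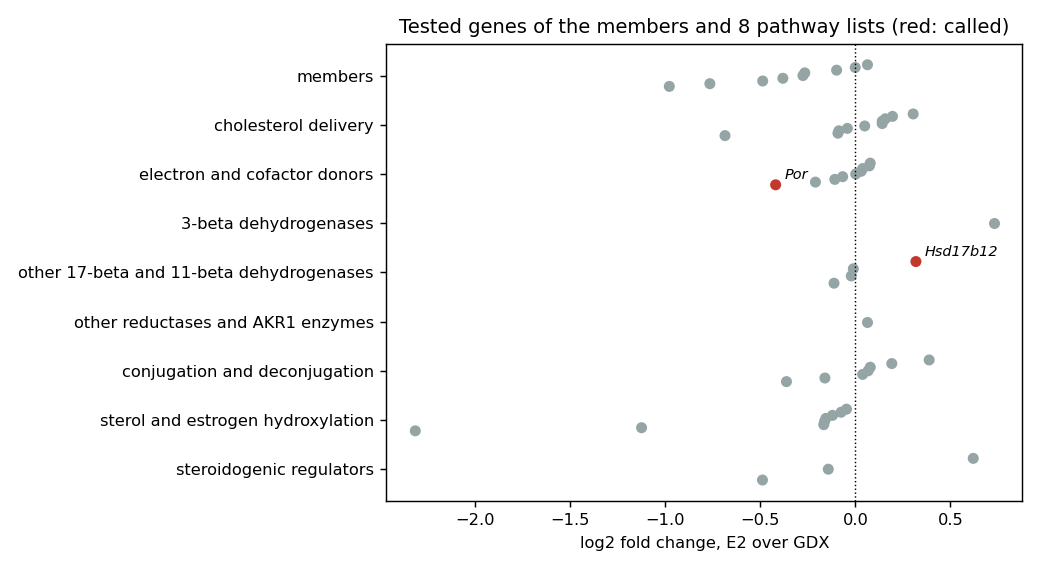
Log2 fold change, E2 over GDX, of each tested gene (points) among the 9 members and in the 8 wider lists with tested genes. Por at −0.42 and Hsd17b12 at 0.32 are the called genes (red), and Cyp1b1 at −2.32 lies farthest from 0 without a call.

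Around the mitochondrial step, 0 of 10 tested genes of cholesterol delivery were called, beside 3.88% of all genes tested, and 2 had an unadjusted p under 0.05, beside 16.8% of all genes tested. Dbi, which encodes a peptide ligand of the TSPO protein, was at 43.0, 51.9 and 63.2 CPM in E2 and at 94.7, 60.6, 80.0 and 103.6 CPM in GDX. Its groups overlapped only in GDX replicate 2, GDX replicates 1 and 4 were again the highest, and its log2 fold change of −0.69 ± 0.20 (SE) had an adjusted p of 0.112 (edgeR). Vdac1, a channel gene of the outer mitochondrial membrane, was at 349 ± 10.7 CPM in E2 and 313 ± 13.3 CPM in GDX (log2 fold change 0.16, adjusted p = 0.239). Besides Por, the 8 other tested genes for electron and cofactor donors were not called, where 3.88% of all genes tested were called. Among these 8 were Cyb5b (202 and 191 CPM in E2 and GDX) and Cyb5r3 (120 and 129.5 CPM in E2 and GDX), which shares 243 bp with an antisense gene.

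The 1 tested 3-beta dehydrogenase, Hsd3b7, whose product acts on bile acid precursors, was at 4.04, 9.99 and 4.66 CPM in E2 and 3.82, 4.16, 3.19 and 3.88 CPM in GDX. E2 replicate 2 stood above all other libraries, and the log2 fold change of 0.73 had an adjusted p of 0.256 (edgeR). Hsd3b7 shares 1717 bp with Gm49388 on the same strand and 1729 bp with 9430064I24Rik on the opposite strand, so its level is uncertain. Of 4 tested genes among the other 17-beta and 11-beta dehydrogenases, Hsd17b12 alone was called, beside 3.88% of all genes tested. Hsd17b8 (H2-Ke6 in the annotation) and Hsd17b11 had log2 fold changes of −0.01 and −0.02. Hsd17b8 shares 1419 bp with Gm20427 on the same strand. Srd5a3, a reductase gene of the polyprenol pathway, was the 1 tested gene of its list and was not called (0.06).

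Of 7 tested genes of conjugation and deconjugation 0 were called and 1 had an unadjusted p under 0.05, against the same 3.88% and 16.8% of all genes. Sult4a1, a brain sulfotransferase gene, was at 402.5 ± 20.0 CPM in E2 and 352 ± 36.6 CPM in GDX (log2 fold change 0.19, adjusted p = 0.283), and Papss1, which makes the sulfate donor, at 71.8 ± 6.57 CPM in E2 and 80.2 ± 4.26 CPM in GDX (−0.16, 0.391). Of 8 tested genes of sterol and estrogen hydroxylation 0 were called and 1 had an unadjusted p under 0.05, where these shares were 3.88% and 16.8% over all genes. All 8 had a log2 fold change below 0, with a median of −0.16, where 49.2% of all tested genes were below 0 and their median was 0.00, and nothing particular to this list was tested. Cyp46a1, the cholesterol 24-hydroxylase gene of neurons, was at 103 ± 7.78 CPM in E2 and 115 ± 13.2 CPM in GDX (−0.16, adjusted p = 0.485). Cyp1b1, an estrogen hydroxylase gene named here after its values were seen, was at 0.771, 0.89 and 0.5615 CPM in E2 and at 1.99, 2.35, 0.687 and 9.77 CPM in GDX. Its log2 fold change of −2.32 (adjusted p = 0.225, edgeR) had no call. GDX replicate 4 was the highest by far and also held 654 CPM of the 6 mural and fibroblast markers, while that sum was 94.4 to 125.7 CPM in E2 and 136 to 250.5 CPM in GDX replicates 1 to 3. The part of these cells in the difference was not tested. Of 3 tested regulator genes of steroid synthesis 0 were called, beside 3.88% of all genes tested. Both Nr5a2 and Nr0b1 were at or below 1.58 CPM in every library. The gene of SF-1, Nr5a1, was at or below 0.137 CPM in every library and was not tested.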

How the data were processed

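Ribosome-bound RNA was analysed in 7 libraries, 3 E2 and 4 GDX, each from 4 pooled brains, and libraries were assigned to groups by their titles. Per the labels, poly(A) libraries without strand information were made. The deposited values are expected counts per gene, with 33.1% of non-zero values not whole (any decimal part counted). Trimmomatic 0.38, STAR 2.6.0a, RSEM 1.3.0 and mm10 are named in the submitters' processing notes, without their roles. Which annotation the authors used is not given in the sources used here. Here, gene IDs were matched to GENCODE M21 on GRCm38 (55203 of 55384). Genes encoded by the mitochondrial genome are not analysed here.

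For testing, the expected counts were rounded to whole numbers. The main test was that of edgeR 4.0.16 under R 4.3.3 (TMM factors, filterByExpr set to 10 counts per library and 15 in total for groups of 3, robust quasi-likelihood test, Benjamini-Hochberg adjustment over 18282 genes). SE are from the test statistic, and intervals are 95%. CPM per kb divides by the union of annotated exons. Log2 CPM for scores and profiles used a prior count of 2. The script was tested on simulated counts with planted changes. P-values measure spread between pools. Floors of 3 counts cover counting error only.

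The members and lists were chosen with earlier results of these data known. Single cell type markers were named where their list was described. Other named genes were all members, Kiss1, Rpl22 and Pgr, called genes of each wider list, its 2 uncalled genes of highest CPM per kb, and the 3 closest profiles to Cyp19a1. A gene that this rule names is not reported here. Rpl22 was at 34.5 CPM in E2 and 30.7 CPM in GDX. Alternatives were DESeq2 1.42.0 size factors or upper-quartile factors, no filter, the DESeq2 Wald test, limma 3.58.1 voom with quality weights, a replicate block, a non-neuronal covariate and each library left out. Leaving out GDX replicates 1 and 4 together and library sizes without factors were added after the data were seen.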

Additional observations from a re-analysis of the deposited data

How the results depend on the processing

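The count of 0 called genes among the 9 held under 15 of 16 other settings. The exception was no low-count filter, with 1 (Tspo), where 1609 of all 33537 genes tested were called. The 2 called genes of the wider lists, out of 43 tested, became 4 out of 66 with no filter. The DESeq2 Wald test gave 3, of which 1 rose and 2 fell. The count was 1 with the replicate block, 1 without GDX replicates 1 and 4 and 1 with library sizes alone. With the non-neuronal covariate it was 0 (log2 fold changes of −0.43 for Por and 0.32 for Hsd17b12, beside −0.42 and 0.32 without it). It was 0 to 2 when 1 library was left out (0 without any of the E2 replicates). Without GDX replicate 2 both called genes fell, Por and 1 other gene of these lists, and Hsd17b12 was not called (adjusted p = 0.0901, edgeR). The 710 called genes over the whole table, 65.8% of them higher in E2, became 1609 (44.9% higher) with no filter, 1358 (46.2%) with the DESeq2 Wald test, 1109 with limma-voom, 450 with the covariate, 737 (52.2% higher) with library sizes alone and 364 to 974 when 1 library was left out (364, 418 and 458 without E2 replicates 1, 2 and 3). Signs turned for 4 of the 9 genes, none of which was called in any setting run. Akr1c14 had log2 fold changes of 0.24 with the replicate block, 1.35 with the covariate, 0.75 without GDX replicates 1 and 4 and −0.65 to 0.16 with 1 library left out. Hsd17b4 had 0.0001 with the block, 0.24 with the covariate and 0.087 without GDX replicates 1 and 4. Star had 0.0361, 0.202 and 0.161 in those fits and −0.0706 to 0.0913 with 1 library left out, and Cyp11a1 −0.25 to 0.55. The causes were not tested. Same-numbered libraries had r of −0.055 to −0.02 across genes, and differently numbered ones −0.057 to 0.042. The labels give the shared number only, and a low r does not show that such libraries share nothing else. The block, fitted on replicates 1 to 3 of each group, gave 627 called genes, with Por among them and Hsd17b12 not (adjusted p = 0.0965, edgeR). The non-neuronal score difference stayed between −0.78 and −0.29 in all settings run. Cyp19a1 and Cyp11a1, with 1 to 37.1 counts each, have wide intervals.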
